A study of Mus musculus with 21 samples.

Results

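The genes described here encode the signalling machinery of transforming growth factor beta (TGF-beta) and of the bone morphogenetic proteins (BMPs). Of 49307 regions that the authors listed as differently methylated in mouse synovial fibroblasts, 130 lay in or within 3 kb of 45 such genes, out of 9615 genes named in the tables. They were taken by gene symbol alone, with no measured value: every gene whose symbol begins with Tgfb, Smad, Ltbp, Bmp, Gdf, Inhb or Acvr, plus Smurf1, Smurf2, Nog, Grem1, Chrd, Fst, Eng, Ski and Skil. The TGF-beta arm, which here includes the activins, held 53 regions at 19 genes, and the BMP arm 53 regions at 17 genes. Another 24 regions lay at 9 genes that serve both arms or neither, such as Eng, Acvr2b, Smad4 and Smurf1. A symbol does not fix a role: Bmp1 encodes a metalloproteinase, Bmp2k a kinase and Tgfb1i1 a focal adhesion adaptor. No region was listed at Tgfb1, Tgfb2, Smad2, Smad6, Smad7, Bmp2, Nog or Grem1, and nothing can be said of the methylation of those genes.

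TGF-beta is secreted bound to a latency peptide and anchored in the matrix by latent TGF-beta binding proteins, from which it must be released. Released ligand brings type II and type I serine/threonine kinase receptors together, and the type I receptor phosphorylates Smad2 and Smad3 in the TGF-beta and activin arm, or Smad1, Smad5 and Smad9 in the BMP arm. Phosphorylated Smads join Smad4 and enter the nucleus. In joints, TGF-beta drives matrix production by fibroblasts, and BMPs and the related growth and differentiation factors pattern joints and cartilage. Methylation near a transcription start is often associated with silencing, whereas methylation within a gene body has no single known relation to expression.

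The cells were cultured synovial fibroblasts, which form the joint lining, from mice of mixed CBA x C57BL/6J background at passages 4 to 5. Tg197 mice carry a human TNF transgene and develop polyarthritis. The 4 deposited comparisons set Tg197 against wild-type (WT) cells at 3, 8 and 11 weeks of age, and TNF-treated against untreated WT cells at 8 weeks, with 3 libraries labelled per group. The labels state neither the dose and duration of TNF treatment nor the promoter that drives the transgene. The labels do not say whether replicates were separate mice or cultures, so a p-value reflects the variation among these libraries alone, and that variation may be technical.

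In MethylCap-seq, DNA bound by a methyl-CpG-binding protein is sequenced, and each value below is the number of normalized reads of a region in one library. Libraries 1 and 2 of the TNF-treated group were identical at every region and were counted once, which left 2 treated libraries against 3. Libraries are named by their place in the deposited cell, which carries no replicate number. Each region was tested with limma on log2(value + 1), with the Benjamini-Hochberg adjustment over all regions of its table and a threshold of 0.05; "gained" and "lost" name regions that passed with higher or lower capture in Tg197 or TNF-treated cells. All regions had already been selected by the authors for a difference, so a test is a retest, and a share is read against that of the whole table. The shallowest and the deepest library had 2230884 and 2875554 reads in listed regions at 3 weeks, 695108 and 1143699 at 8 weeks, 385155 and 544797 at 11 weeks, and 1285306 and 1858694 among the TNF libraries and their WT libraries. Of the markers of possible cell types, regions were listed at 3 of 10 synovial fibroblast genes, 2 of 6 macrophage, 4 of 4 endothelial and 0 of 3 muscle genes. Capture does not measure expression, so the cell type was not checked by these, and a change of methylation per cell and a change in the mix of cells cannot be told apart.

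At 3 weeks, the members split between gain and loss. Of 33 member regions at 20 genes, 27 passed (85.0% of all listed regions did), with 12 gained (40.3% of all) and 15 lost (44.7%). Among regions assigned to any gene, 42.9% were gained and 41.8% lost. The clearest changes were losses within Acvr1, which encodes a BMP type I receptor, within Bmper, which encodes a secreted modulator of BMPs, and within the ubiquitin ligase gene Smurf1, and a gain within Chrd, whose product chordin sequesters BMPs. The largest gain, at Chrd, had a log2 fold change of 1.50 and the largest loss, at Smurf1, -0.78. In the TGF-beta arm 11 of 13 regions passed, 5 gained and 6 lost, and in the BMP arm 12 of 14 passed, 5 gained and 7 lost. The median log2 fold change was -0.12 in the TGF-beta arm and -0.19 in the BMP arm, beside -0.12 over the whole table. Libraries of the groups did not overlap at 28 of the 33 members (86.1% of all regions). Many of these differences were small: at 16 members the authors' deposited p-value lay more than 10 times below the smallest p that counting error in the reads would give (exact binomial), as at 37.2% of all regions, and only 6 regions passed with a log2 fold change of at least 1 in either direction. With 1 library left out, the small gains at Acvr1b and Bmp7 and losses at Acvr2b, Smad1 and Smad3 each failed the limma test in at least 1 fit.

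At 8 weeks, losses in Tg197 cells were deep and gains fewer. Of 19 members at 16 genes, 13 passed (54.0% of all listed regions), 5 gained (17.4%) and 8 lost (36.6%). Of the table's gene-assigned regions 12.1% were gained and 45.0% lost. The deepest loss lay within Smad1, which encodes a BMP-activated Smad, at a log2 fold change of -2.98, followed by Acvr2b, an activin type II receptor gene, at -2.13 and Smad9 at -1.99. The largest gain lay within Smad3, the TGF-beta-activated Smad gene, at 2.44. The TGF-beta arm had 4 of 6 regions passing (2 gained, 2 lost), the BMP arm 6 of 8 (3 gained, 3 lost), and the genes of both or neither arm 3 of 5, all lost. The median log2 fold change was -0.36 in the TGF-beta arm and 0.52 in the BMP arm, against -0.22 over the table and -0.94 over its gene-assigned regions. The groups did not overlap at 15 of 19 members (69.6% of all regions). All adjusted p-values of members that passed lay between 0.0428 and 0.0464, and in limma 0 members and 0 regions of the table passed when Tg197 library 1, Tg197 library 3, WT library 1 or WT library 2 was left out; at unadjusted p under 0.05 these fits held 10, 12, 11 and 11 members. With all libraries, 10 members passed in limma voom on recovered reads (49.0% of all regions). With median ratios in place of the authors' size factors, 14 passed, 7 gained (31.2% of all regions) and 7 lost (33.2%).

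At 11 weeks, gains prevailed in the BMP arm and both directions were even in the TGF-beta arm. Of 31 members at 22 genes, 22 passed (77.9% of all listed regions), 16 gained (49.7%) and 6 lost (28.2%), where gene-assigned regions were gained in 52.7% and lost in 25.6% of cases. The BMP arm had 8 of 13 regions passing, 7 gained and 1 lost, at Gdf6, which encodes a joint-patterning ligand. The TGF-beta arm had 10 of 13 passing, 5 gained and 5 lost. The losses lay at Gdf3, Ltbp1, Ltbp2, Ltbp4 and Tgfb3, and the gains at Ltbp1, Smad3 and Tgfbr3. The latent TGF-beta binding proteins thus had 2 regions gained and 3 lost. The genes of both or neither arm had 4 of 5 passing, all gained. The median log2 fold change was 0.64 in the TGF-beta arm and 1.02 in the BMP arm, against 0.76 over the table. The groups did not overlap at 25 of 31 members (83.7% of all regions). With libraries rescaled by median ratios, 20 members passed, 10 gained and 10 lost, where 32.6% of all listed regions were gained and 40.5% lost and the table's median moved to 0.45. The BMP arm then held 4 gained and 3 lost. Under that scaling 6 gains did not pass, at Acvr1, Bmp2k, Bmpr1a, Bmpr1b, Ltbp1 and Smad3. No member passed in limma when Tg197 library 1, Tg197 library 3 or WT library 2 was left out, where 22, 18 and 20 members had an unadjusted p under 0.05. Of all 7309 listed regions 10, 0 and 0 passed in these fits. With all libraries, limma voom passed 20 members (70.3% of all regions).

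After TNF treatment, most listed regions at these genes lost capture, in both arms. Of 47 members at 30 genes, 46 passed (93.8% of all listed regions), 10 gained (29.8%) and 36 lost (64.1%). Over regions assigned to any gene, 20.8% were gained and 73.0% lost. In the TGF-beta arm 20 of 21 passed, 3 gained and 17 lost, and in the BMP arm 18 of 18, 5 gained and 13 lost. The largest loss, within Smad3, had a log2 fold change of -2.65, and the largest gain lay in the same gene at 1.89. The median log2 fold change was -1.52 in the TGF-beta arm and -1.34 in the BMP arm, beside -1.08 over the table. The groups did not overlap at 46 of 47 members (95.8% of all regions). The calls rested on the library scaling. With median ratios in place of the authors' size factors, the table's median moved to -0.23, 15 members passed, 11 gained (34.7% of all regions) and 4 lost (8.36%), and the fold change turned sign at 2 members. Over all listed regions, 5858 were then gained and 1412 lost, against 5028 gained and 10827 lost with the authors' factors. The 4 losses that kept their call lay at Smad3, Acvr1, Acvr1b and Ltbp4, and all 10 gains kept theirs. The other 32 losses, those at Bmp4, Gdf3, Gdf5 and Eng included, did not pass with median ratios. With 1 library left out, 8 of the 10 gains (those other than Smad3 and Skil) and 11 of the 36 losses failed the limma test in at least 1 fit.

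**Figure D1:**
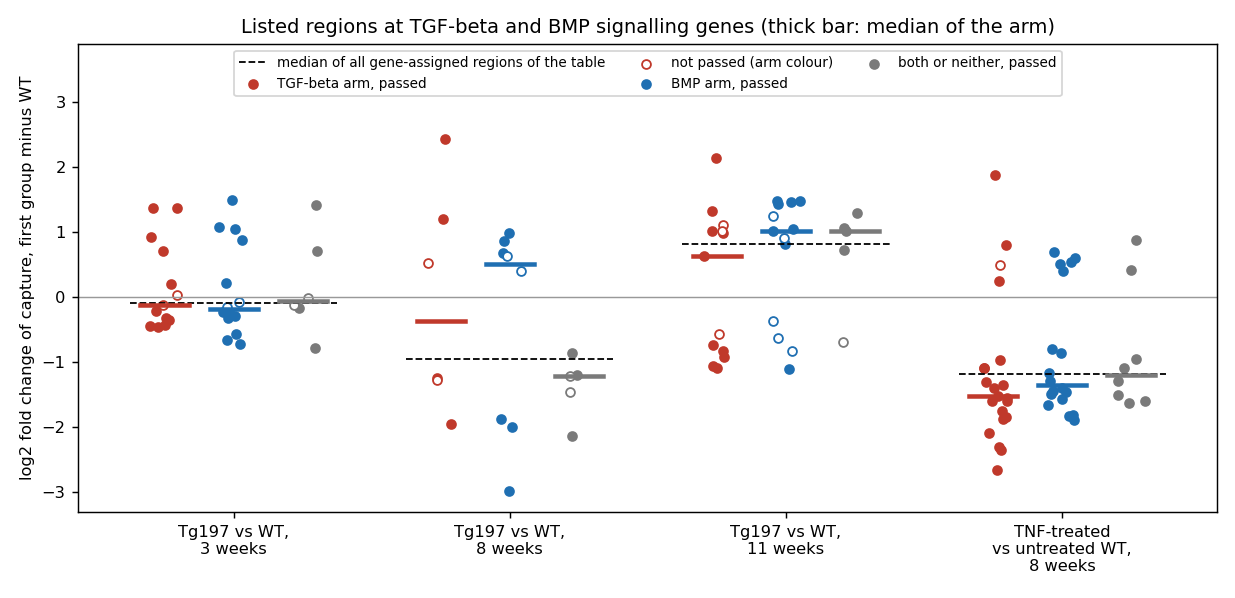
Log2 fold change of capture (y axis) at each of the 130 member regions, by comparison and arm (x axis); filled points passed the limma test, open points did not, thick bars are arm medians and dashed lines the median of all gene-assigned regions of the table. After TNF treatment both arm medians, -1.52 and -1.34, lie below 0, whereas at 3 weeks they are -0.12 and -0.19.

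The direction of a listed region followed its read level in all 4 tables, members included. At 3 weeks, 77.1% of all regions below the table's median level had a positive fold change and 9.66% of those at or above it; among members these shares were 55.6% of 18 and 20.0% of 15. At 11 weeks they were 80.0% and 28.3% over all regions, and 87.5% of 16 and 40.0% of 15 members. The relation ran the other way at 8 weeks, with 21.8% below and 75.3% above the median level, and 16.7% of 12 and 85.7% of 7 members. In the TNF table the shares were 13.1% and 54.5%, and 3.85% of 26 and 47.6% of 21 members. The part of read level in the direction of any single member was not tested.

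**Figure D2:**
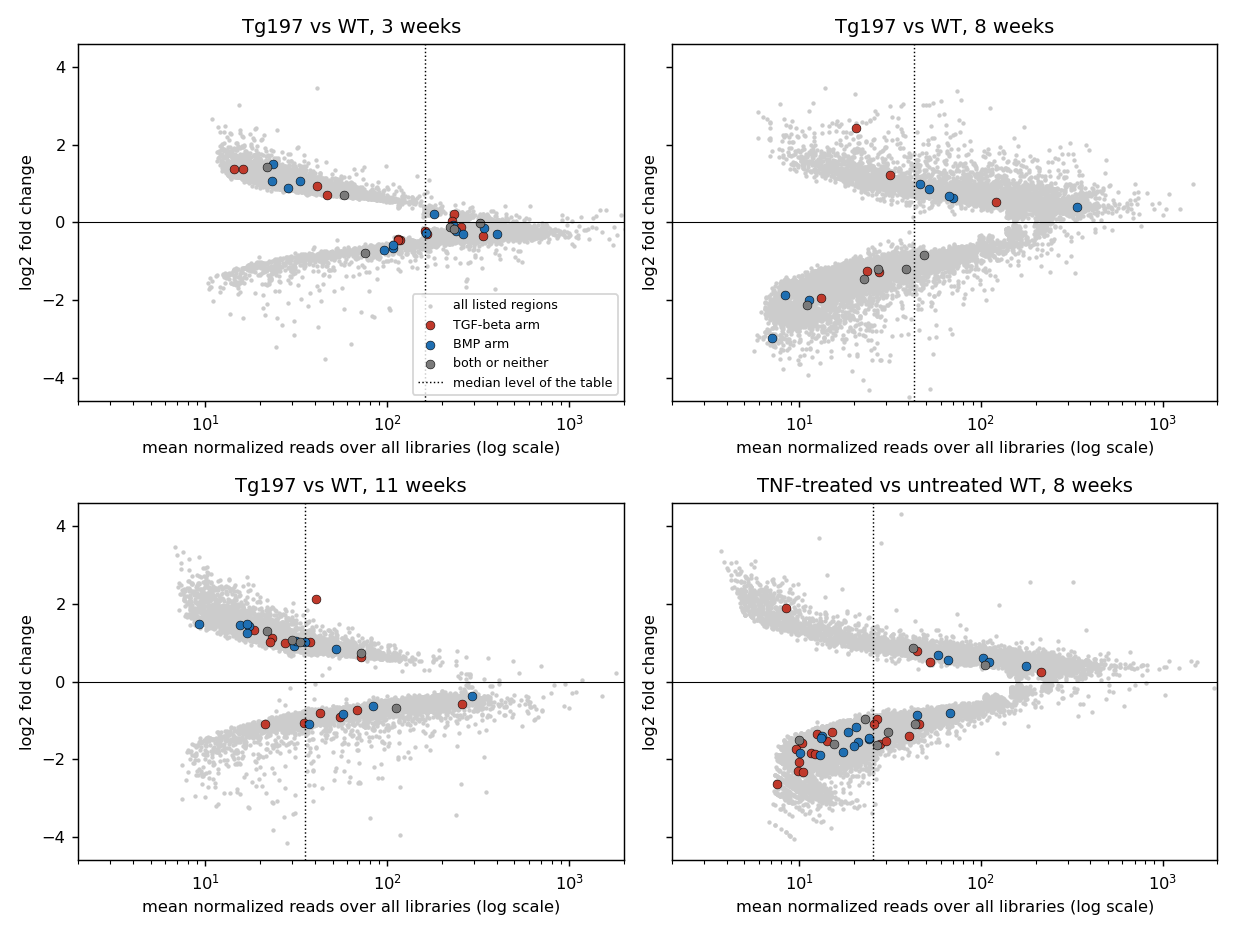
Log2 fold change (y axis) against the mean of normalized reads over all libraries (x axis, log scale) for all listed regions (grey) and member regions (coloured by arm), 1 panel per comparison; the dotted line is the median level of the table. Most members lie within the same wedge as all regions: at 3 weeks only 3 of the 15 members right of the line have a positive fold change, against 10 of the 18 left of it.

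Single libraries were often the extreme of their group among the members. The same counts were not made over all listed regions. At 8 weeks Tg197 library 2 lay nearest to WT, as the lowest of its group at 7 of 8 members with a positive fold change and the highest at 10 of 11 with a negative one. WT library 3 was the lowest WT library at 9 of those 11. At 11 weeks Tg197 library 3 was the highest of its group at 17 of 20 members with a positive fold change, and WT library 1 the highest WT library at all 11 with a negative one. In the TNF table WT library 3 was the lowest WT library at 23 of 36 members with a negative fold change. At 3 weeks WT library 1 was the highest WT library at 13 of 20 such members. Without Tg197 library 2, 17 of the 19 members passed at 8 weeks, and 73.9% of all listed regions did. Every member call at 8 weeks (5 gained, 8 lost) and at 11 weeks (16 gained, 6 lost) failed when some library was left out. This limit holds for all 8-week and 11-week calls named below and is not repeated gene by gene.

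Within 3 kb of a transcription start lay 11 member regions, at 8 genes. After TNF treatment, the start of Bmp4, which encodes a ligand of joint and limb development, had 4.98 and 7.44 normalized reads in TNF-treated libraries 1 and 3, against 20.6, 19.8 and 13.5 in the WT libraries (chromosome 14, 47009701 to 47010400, mm9). All treated values lay below all WT values, at a log2 fold change of -1.39 ± 0.43 (SE; limma, adjusted p = 0.0126). The loss did not pass with median-ratio scaling (log2 fold -0.59, limma adjusted p = 0.205). The call was lost without TNF-treated library 1 (adjusted p = 0.0513) and without WT library 2 (0.0529), both in limma. The authors' region runs from 127 bases before to 572 bases after the start that they annotate. The promoter sequence of Bmp4 is shown because this is the only region at a BMP ligand that covers the start itself; it is RefSeq's, in build GRCm38.p6 (chr14:46390620-46390919, minus strand), from 250 bases before to 50 after the start, with each CG, the dinucleotide that carries the methylation, in capitals.
Bmp4: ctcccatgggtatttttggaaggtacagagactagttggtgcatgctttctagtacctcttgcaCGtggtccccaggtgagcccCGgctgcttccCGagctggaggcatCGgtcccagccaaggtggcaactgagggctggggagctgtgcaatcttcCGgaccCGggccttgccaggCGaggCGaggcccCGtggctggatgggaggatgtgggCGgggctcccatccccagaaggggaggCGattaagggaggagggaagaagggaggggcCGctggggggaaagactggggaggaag
It holds 12 CG dinucleotides in 300 bases, and 62.1% of the promoters in the same RefSeq table hold as many or fewer.

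Gdf3, a ligand of the TGF-beta family, lost capture at its start at 11 weeks and upstream of it after TNF treatment. At 11 weeks the region over the start (chromosome 6, 122559851 to 122560350) had 11.2, 12.6 and 16.4 normalized reads in the Tg197 libraries, against 31.3, 29.8 and 26.3 in the WT libraries (log2 fold change -1.08 ± 0.30 SE, limma adjusted p = 0.0219). In the TNF table a region centred 1.8 kb upstream had 5.97 and 2.48 in the treated and 18.8, 15.2 and 16 in the WT libraries, and one within the gene had 8.96 and 6.2 in the treated and 23.1, 19.8 and 17.2 in the WT libraries. The groups were apart in all 3 regions, and the log2 fold changes after TNF treatment were -1.84 and -1.30 (limma, adjusted p = 0.0109 and 0.0121). With median-ratio scaling neither of these TNF losses passed (limma, adjusted p = 0.0672 and 0.258). Gdf5, a ligand of joint formation, was lost upstream of its start after TNF treatment, with 5.97 and 2.48 normalized reads in treated libraries against 22.3, 25.9 and 8.6 in WT libraries. That loss did not pass with median-ratio scaling (limma, adjusted p = 0.0798). WT library 3 lay close to the treated values, and the call (log2 fold change -1.88, limma adjusted p = 0.0121) was lost without treated library 3 (0.0704) or WT library 2 (0.0508). Gdf15, a distant family member induced by stress, did not pass upstream of its start at 8 weeks: Tg197 libraries had 11.9, 15.2 and 4.41 and WT libraries 43.1, 53.9 and 8.84, and WT library 3 lay within the Tg197 range.

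Eng, which encodes endoglin, a co-receptor for both arms, had a region centred 2.2 to 2.5 kb upstream of its start in 3 of the 4 tables. At 3 weeks it held 65.9, 75.4 and 74.2 normalized reads in the Tg197 libraries, against 43.2, 35.3 and 52.3 in WT libraries, all Tg197 values being higher (log2 fold change 0.72 ± 0.18 SE, limma adjusted p = 0.00256). At 8 weeks the values were 13.2, 40.8 and 20.6 in Tg197 and 55.8, 55.4 and 46.4 in WT libraries, all Tg197 values being lower (log2 fold -1.19 ± 0.41, adjusted p = 0.0464 in limma). In TNF-treated libraries they were 31.9 and 19.8, against 56.5, 56.4 and 51.6 in the WT libraries, which are the WT libraries of the 8-week comparison (log2 fold -1.09 ± 0.25, adjusted p = 0.0109 in limma). The 8-week call did not hold in limma voom (adjusted p = 0.0512) or with median-ratio scaling (0.0561). The TNF loss at this place did not pass with median-ratio scaling either (log2 fold -0.22, limma adjusted p = 0.52). Within the gene, a region 23 kb from the start was gained after TNF treatment, at 47.8 and 69.4 normalized reads in treated against 34.2, 25.9 and 33.2 in WT libraries, and one 24 kb from it was lost, at 7.96 and 4.96 in treated against 22.3, 26.7 and 16 in WT libraries. The log2 fold changes were 0.88 and -1.60 in regions with 800 bases between them. The loss did not pass with median-ratio scaling (limma, adjusted p = 0.0933). The gain did not pass without treated library 3 (limma, adjusted p = 0.0915).

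The other promoter regions lay at Fst, Ltbp1 and Smad9. Fst encodes follistatin, which binds activins, and at 3 weeks its region had 102, 93.3 and 101 normalized reads in Tg197 against 131, 127 and 148 in WT libraries (log2 fold -0.45 ± 0.10 SE, limma adjusted p = 0.00229). Smad9, a BMP-activated Smad gene, gained capture near its start at 11 weeks (chromosome 3, 54561501 to 54562000), with 23.1, 20.6 and 31.9 in Tg197 and 5.44, 13 and 7.8 in WT libraries (log2 fold 1.48 ± 0.40, adjusted p = 0.0219 in limma). Neither pair of groups overlapped.

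**Figure D3:**
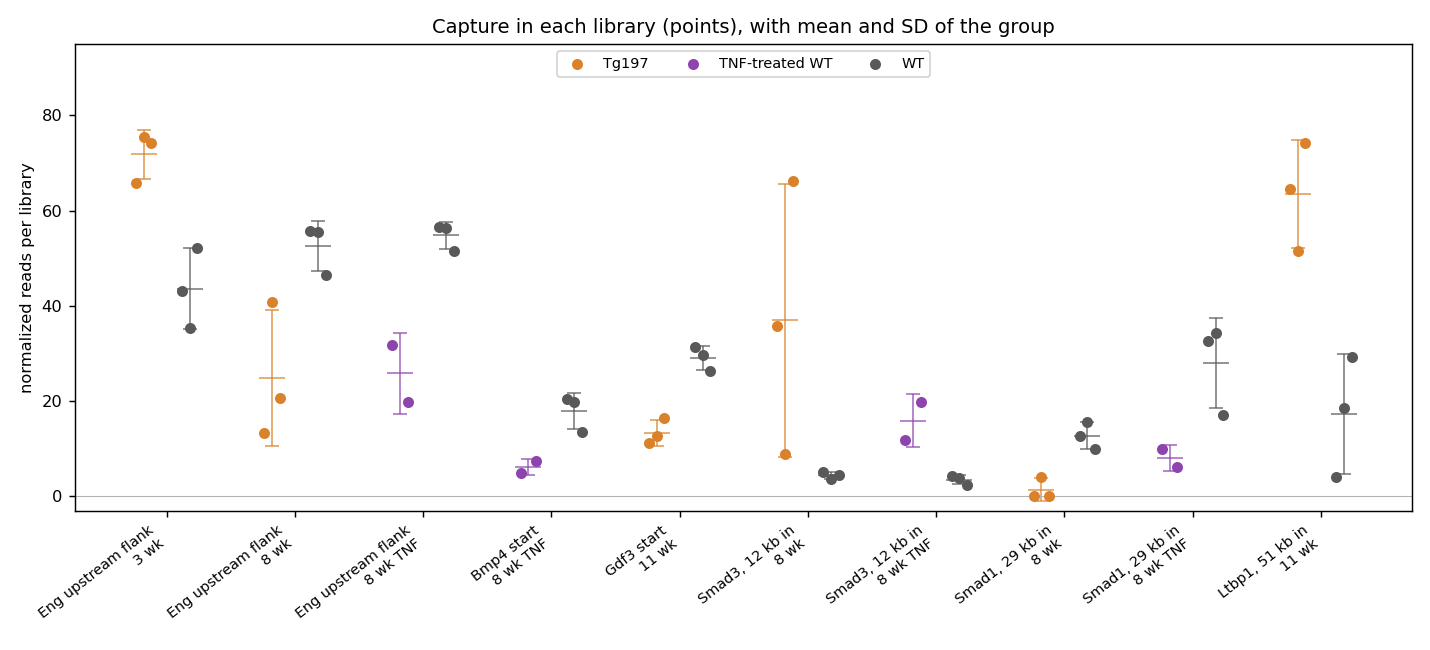
Normalized reads (y axis) in each library for 10 member regions (x axis; distances within a gene are from its start), with the mean and SD of each group; Tg197 or TNF-treated libraries stand left of WT. The Eng region is above WT in Tg197 cells at 3 weeks (65.9 to 75.4 against 35.3 to 52.3) and below it at 8 weeks (13.2 to 40.8 against 46.4 to 55.8).

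At ligands of the TGF-beta arm all 7 listed regions were lost, 2 at 11 weeks and 5 after TNF treatment (25.6% and 73.0% of gene-assigned regions were lost). With median-ratio scaling the 2 losses at 11 weeks passed and the 5 after TNF treatment did not. Under that scaling 37.3% and 9.33% of gene-assigned regions were lost. Tgfb3, one of the TGF-beta isoforms, fell at 11 weeks to 51 ± 7.58 normalized reads in Tg197 cells, against 85.8 ± 16.3 in WT cells (SD, n = 3 each; log2 fold change -0.73, limma adjusted p = 0.0231). Another Tgfb3 region had 33.9 and 21.1 in TNF-treated and 55.6, 60.2 and 57.8 in WT libraries, with a log2 fold change of -1.08 and no overlap (limma, adjusted p = 0.0109). Inhba and Inhbb, which encode activin and inhibin subunits, had 1 region each, both lost after TNF treatment, at 3.98 and 3.72 normalized reads in treated against 27.4, 15.2 and 11.1 in WT libraries for Inhba, and 13.9 and 19.8 in treated against 35.1, 28.2 and 38.1 in WT libraries for Inhbb. The Inhbb call did not pass without treated library 1 (limma, adjusted p = 0.0742). Tgfbi, a matrix protein gene induced by TGF-beta, had 1 region, at 11 weeks, that did not pass: 23.1, 13.7 and 60.4 in Tg197 and 12.2, 12.1 and 13.6 in WT libraries.

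The latent TGF-beta binding proteins, which hold the latent ligand in the matrix, had regions at Ltbp1, Ltbp2 and Ltbp4. Within Ltbp1 at 11 weeks a region 51 kb from the start (chromosome 17, 75455201 to 75456300) had 64.6, 51.5 and 74.1 normalized reads in Tg197 and 4.08, 18.6 and 29.2 in WT libraries, the largest gain among the members of that table (log2 fold 2.14 ± 0.57 SE, limma adjusted p = 0.0219). WT library 1 was far below the other WT libraries there, and all Tg197 libraries were higher. In the same table a region near another annotated start of Ltbp1 went the other way, with 19.1, 22.9 and 23.3 in Tg197 and 66.6, 42.8 and 35.1 in WT libraries (log2 fold -1.06), while one 9 kb from the first start was gained (log2 fold 0.64, but 0.33 with median ratios, limma adjusted p = 0.242). Ltbp1 was thus both gained and lost at 11 weeks, as it was at 3 weeks, where its log2 fold changes were 1.37 and -0.42. After TNF treatment its 1 region had 13.9 and 9.92 in treated and 48.8, 37.3 and 29.5 in WT libraries (log2 fold -1.60, limma adjusted p = 0.0109). The TNF losses at Ltbp1 and Ltbp2 did not pass with median-ratio scaling (limma, adjusted p = 0.0592 and 0.28). Ltbp4 was lost at 11 weeks, with 48.7, 36.6 and 30.2 in Tg197 and 76.2, 68.9 and 70.2 in WT libraries, and after TNF treatment, with 1.99 and 2.48 in treated and 20.6, 17.5 and 9.83 in WT libraries. Those Ltbp4 regions lay at different places in the gene, and their log2 fold changes were -0.91 and -2.34. Ltbp2 was lost at 11 weeks (log2 fold -0.82) and after TNF treatment (log2 fold -1.35; limma adjusted p = 0.0845 without TNF-treated library 1 and 0.0524 without WT library 2), and did not pass at 3 weeks (log2 fold 0.04).

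BMP ligands had 20 regions at 8 genes, with 8 gained and 9 lost, where 29.3% of the gene-assigned regions of the 4 tables were gained and 51.5% lost. Bmp6 and Bmp7 had regions in both directions. Bmp6, known in iron balance and bone, had 8 regions, and at 1 place 102 kb from its start (chromosome 13, 38539051 to 38539900) Tg197 libraries had 56.2, 41.5 and 37.6 normalized reads at 3 weeks against 16, 26.2 and 20.4 in WT libraries (log2 fold 1.08 ± 0.25 SE, limma adjusted p = 0.00235). At the same place TNF-treated libraries had 12.9 and 6.2, against 30.8, 26.7 and 28.3 in WT libraries (log2 fold -1.56 ± 0.38, limma adjusted p = 0.0109). That TNF loss did not pass with median-ratio scaling (log2 fold -0.73, limma adjusted p = 0.114). In neither comparison did the groups overlap. The other Bmp6 regions that passed were lost (log2 fold -0.57) and gained (log2 fold 1.06) at 3 weeks, gained at 11 weeks (log2 fold 1.49), and gained (log2 fold 0.55) and lost (log2 fold -0.85) after TNF treatment. The last was 0.02 with median-ratio scaling, and neither the TNF gain nor that loss held without treated library 1 (limma, adjusted p = 0.163 and 0.0514). Bmp7, which acts in skeletal and kidney development, was lost at 3 weeks 61 kb from its start, at 146, 152 and 144 in Tg197 against 188, 178 and 169 in WT libraries (log2 fold -0.27, limma adjusted p = 0.00641), and gained 9 kb away (log2 fold 0.22). That gain did not pass without Tg197 library 2, Tg197 library 3 or WT library 3 (limma, adjusted p = 0.0719, 0.102 and 0.103). The first place at 8 weeks had 122, 70.6 and 67.7 in Tg197 and 47.4, 57.7 and 55.3 in WT libraries, without overlap but short of the threshold (log2 fold 0.64, limma adjusted p = 0.0739). After TNF treatment Bmp7 had a gained and a lost region, at log2 fold changes of 0.70 and -0.80. The loss was 0.07 with median-ratio scaling, and neither region passed without treated library 1 (limma, adjusted p = 0.0708 and 0.137).

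The remaining BMP ligands had 1 or 2 regions each. Bmp5 was gained after TNF treatment, at 155 and 105 normalized reads in treated against 98.5, 82.3 and 73.7 in WT libraries (log2 fold 0.60, but 0.32 without treated library 1, limma adjusted p = 0.195). Bmp15, an oocyte growth factor gene on the X chromosome, was lost in the same table (log2 fold -1.29). Bmp8a was gained at 8 weeks (log2 fold 0.99), and another of its regions did not pass at 11 weeks (log2 fold -0.83). Gdf6 was lost at 11 weeks (chromosome 4, 9786101 to 9786900), with 27.9, 24.1 and 18.1 in Tg197 and 58.5, 43.7 and 49.7 in WT libraries (log2 fold -1.10 ± 0.27 SE, limma adjusted p = 0.0219), the largest loss among the members of that table. Gdf10, a divergent family member, was lost after TNF treatment (log2 fold -1.62). Neither Gdf10 nor Bmp15 passed in the TNF table with median-ratio scaling (limma, adjusted p = 0.0882 and 0.286).

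Receptors and co-receptors, Eng included, carried 38 member regions at 11 genes, with 14 gained, 19 lost and 5 that did not pass (29.3% and 51.5% of gene-assigned regions were gained and lost). At 11 weeks 6 of their 8 regions were gained and none was lost, where 49.7% of all listed regions were gained; with median ratios 3 were gained and 1 lost. Tgfbr3, which encodes betaglycan, a co-receptor that presents TGF-beta, had 8 regions in all 4 tables. At 11 weeks it was gained 54 kb from the start, at 47.9, 49.2 and 54.3 normalized reads in Tg197 against 21.8, 18.6 and 35.1 in WT libraries (log2 fold 1.03), and 18 kb from it (log2 fold 1.33). Another region in that table did not pass (log2 fold -0.57), with WT library 1 at 477 and the others near the Tg197 values. At 3 weeks it was lost at 32 kb, with 268, 305 and 317 in Tg197 and 391, 389 and 346 in WT libraries (log2 fold -0.34, limma adjusted p = 0.00222), and gained at 38 kb (log2 fold 0.71). A region was gained at 8 weeks, at 47.7, 40.8 and 42.6 in Tg197 and 19.4, 10.5 and 29.8 in WT libraries (log2 fold 1.21), and 2 others were lost after TNF treatment (log2 fold -1.74 and -1.54), the second of which did not pass without treated library 1 or WT library 2 (limma, adjusted p = 0.0608 and 0.0506). Neither of those TNF losses at Tgfbr3 passed with median-ratio scaling (limma, adjusted p = 0.0895 and 0.148). Of the signalling receptors of TGF-beta itself, Tgfbr2 was lost at 3 weeks (log2 fold -0.44), with 90.7, 95.2 and 106 in Tg197 and 121, 142 and 134 in WT libraries, and Tgfbr1 did not pass after TNF treatment, where treated library 1 had 88.6 and treated library 3 lay among the WT libraries.

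Acvr1, a BMP type I receptor gene, had 8 regions. It was lost at 3 weeks 113 kb from its start, with 76.7, 83.9 and 91 normalized reads in Tg197 and 126, 137 and 134 in WT libraries (log2 fold -0.65 ± 0.11 SE, limma adjusted p = 0.00146). A loss at 8 weeks had 1.33, 5.54 and 2.94 in Tg197 and 12.7, 12 and 15.5 in WT libraries (log2 fold -1.87, adjusted p = 0.0428 in limma). At 11 weeks 2 regions were gained (log2 fold 1.02 and 1.44), and in the second the groups overlapped slightly, with 17.6, 11.4 and 51.7 in Tg197 and 5.44, 6.52 and 11.7 in WT libraries. That second call held neither with median ratios (adjusted p = 0.0524) nor in limma voom (0.0845). After TNF treatment Acvr1 was lost 59 kb from the start, at 4.98 and 7.44 in treated against 35.1, 19.8 and 19.7 in WT libraries (log2 fold -1.81), and gained 6 kb from it (log2 fold 0.40; without treated library 1, limma adjusted p = 0.0659).

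The activin type I receptor gene Acvr1b was lost in both tables with WT libraries of 8 weeks. Tg197 libraries had 2.65, 11.1 and 2.94 normalized reads, against 24.5, 22.5 and 15.5 in WT libraries (log2 fold -1.94), and after TNF treatment its deepest region had 1.99 and 2.48 in treated and 14.6, 12.2 and 18.4 in WT libraries (log2 fold -2.30 ± 0.47 SE, limma adjusted p = 0.0109). At 3 weeks it was lost at 1 region and gained at another, with log2 fold changes of -0.31 and 0.21. The gain did not pass without Tg197 library 3 or WT library 2 (limma, adjusted p = 0.0801 and 0.0726). Another TNF-table loss at Acvr1b was -1.59 on the log2 scale and -0.84 without treated library 1 (limma, adjusted p = 0.108), and it did not pass without WT library 2 (limma, adjusted p = 0.0539). The related Acvr1c had 2 regions after TNF treatment, 1 lost (log2 fold -1.39) and 1 gained (log2 fold 0.26), a gain that did not pass without treated library 1 or 3 or WT library 1 or 2 (limma, adjusted p from 0.101 to 0.132). The shallower TNF loss at Acvr1b and the loss at Acvr1c did not pass with median-ratio scaling (limma, adjusted p = 0.19 and 0.17). Acvr2b, a type II receptor gene of activins, was lost at both its regions of the 8-week table, and at 1 of its 2 regions at 3 weeks (log2 fold -0.17; limma adjusted p = 0.135 with median-ratio scaling). At 8 weeks the first had 30.5, 40.1 and 32.4 in Tg197 and 66, 67.4 and 54.2 in WT libraries (log2 fold -0.85), and the second 2.65, 4.15 and 2.94 in Tg197 and 30.4, 12.7 and 13.3 in WT libraries (log2 fold -2.13 ± 0.49 SE, limma adjusted p = 0.0428). The BMP receptor genes Bmpr1a and Bmpr1b were gained wherever listed: Bmpr1a at 8 weeks, with 94.1, 65.7 and 86.8 in Tg197 and 52.4, 49.4 and 49.7 in WT libraries (log2 fold 0.68; limma voom, adjusted p = 0.0501), and at 11 weeks (log2 fold 1.05), and Bmpr1b at 11 weeks (log2 fold 0.83). Neither 11-week call held with median-ratio scaling (limma, adjusted p = 0.0809 and 0.0975), nor did that of Bmpr1a in limma voom (adjusted p = 0.0829). Bmpr2, the BMP type II receptor gene, was lost after TNF treatment, at 12.9 and 9.92 in treated and 26.5, 22.9 and 30.7 in WT libraries (log2 fold -1.16). That loss did not pass with median-ratio scaling (limma, adjusted p = 0.44).

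**Figure D4:**
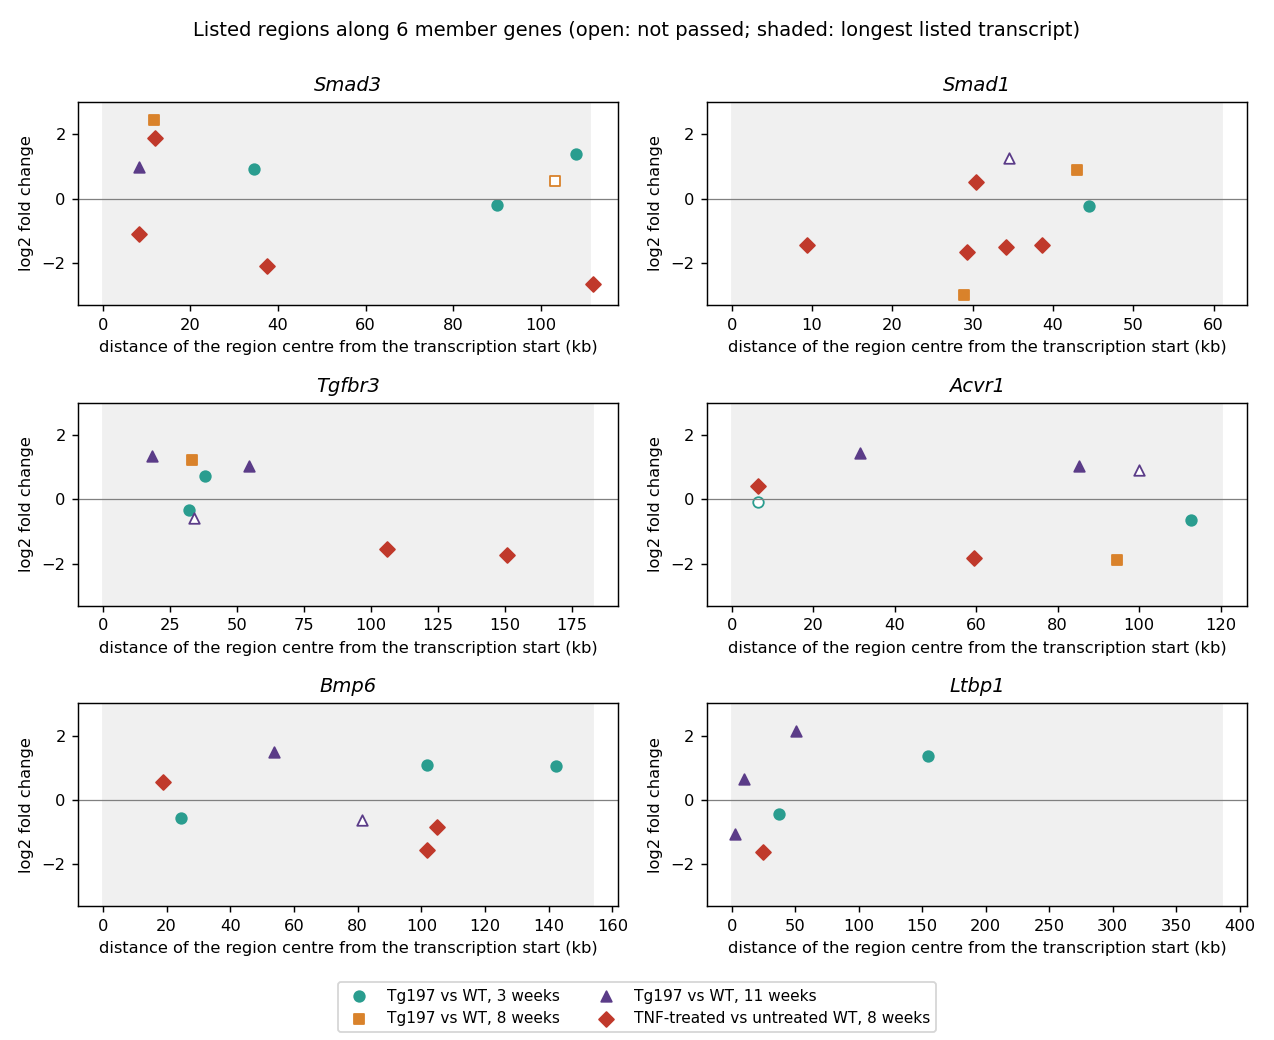
Log2 fold change (y axis) of each listed region against the distance of its centre from the transcription start in kb (x axis) for 6 member genes, marked by comparison; open symbols did not pass. In Smad3, the region 12 kb from the start is above 0 at 8 weeks and after TNF treatment (2.44 and 1.89), while the other 3 regions of the TNF table are below 0.

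Smad3, the receptor-activated Smad of the TGF-beta arm, had the most regions of any member, 10, with 5 gained, 4 lost and 1 that did not pass. Within the gene, 12 kb from its start (chromosome 9, 63593701 to 63594450), Tg197 libraries at 8 weeks had 35.8, 9 and 66.2 normalized reads, against 5.07, 3.75 and 4.42 in WT libraries (log2 fold 2.44 ± 0.70 SE, limma adjusted p = 0.0428). All Tg197 values were higher, but they differed among themselves more than 7-fold, with library 2 nearest to WT, and the call did not hold in limma voom (adjusted p = 0.0916). In the TNF table the same place had 11.9 and 19.8 in treated and 4.28, 3.81 and 2.46 in WT libraries, which are the same WT samples (log2 fold 1.89 ± 0.51, limma adjusted p = 0.0109). The other 3 Smad3 regions of the TNF table were lost, the deepest 112 kb from the start with 2.99 and 0 in treated and 13.7, 11.4 and 9.83 in WT libraries (log2 fold -2.65). A place 8 kb from the start was gained at 11 weeks, with 43.1, 27.5 and 39.7 in Tg197 and 20.4, 18.6 and 14.6 in WT libraries (log2 fold 0.99, limma adjusted p = 0.0219, and 0.0502 with median-ratio scaling), and lost after TNF treatment, with 12.9 and 17.4 in treated and 27.4, 38.1 and 34.4 in WT libraries (log2 fold -1.09, limma adjusted p = 0.011). With median-ratio scaling the TNF losses 37 kb and 8 kb from the start did not pass (limma, adjusted p = 0.0575 and 0.544), while the deepest did (0.0305). At 3 weeks 2 regions were gained (log2 fold 1.37 and 0.93) and 1 was lost (log2 fold -0.21), and that loss did not hold without Tg197 library 1 or WT library 1 or 2.

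Smad1, of the BMP arm, had 9 regions, of which 6 were lost and 2 gained. The deepest loss, 29 kb from its start at 8 weeks (chromosome 8, 81894201 to 81894700), had 0, 4.15 and 0 normalized reads in Tg197 and 12.7, 15.7 and 9.95 in WT libraries, so that Tg197 libraries 1 and 3 had no read (log2 fold -2.98 ± 0.73 SE, limma adjusted p = 0.0428). A fold change this near to 0 reads depends on the added 1. The TNF table held a region that shares 100 bp with it, with 9.95 and 6.2 in treated and 32.5, 34.3 and 17.2 in WT libraries (log2 fold -1.65). About 1 kb away, TNF-treated libraries were higher, at 129 and 141 against 83, 97.5 and 104 in WT libraries (log2 fold 0.51; without treated library 3, limma adjusted p = 0.0671), and 3 further regions were lost (log2 fold -1.45, -1.49 and -1.44; without WT library 2 the first had a limma adjusted p of 0.0501). None of the TNF losses at Smad1 passed with median-ratio scaling (limma, adjusted p from 0.0751 to 0.177). The rest of its regions were a gain at 8 weeks (log2 fold 0.87), a loss at 3 weeks (log2 fold -0.23; without WT library 1, limma adjusted p = 0.0624) and a region that did not pass at 11 weeks (log2 fold 1.25).

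Smad9, also of the BMP arm, had 5 regions. It was lost at 8 weeks, with 5.3, 3.46 and 2.94 normalized reads in Tg197 and 24.5, 19.5 and 12.2 in WT libraries (log2 fold -1.99), and after TNF treatment, with 2.99 and 3.72 in treated and 12.8, 16 and 14.7 in WT libraries (log2 fold -1.83), at places 7.6 kb apart. The TNF loss did not pass with median-ratio scaling (limma, adjusted p = 0.0626). At 3 weeks Smad9 was gained 5 kb (log2 fold 0.88) and lost 11 kb (log2 fold -0.31) from the start. Smad5 had a loss at 3 weeks, at 239, 247 and 221 in Tg197 against 295, 289.6 and 282 in WT libraries (log2 fold -0.29, limma adjusted p = 0.00246), and 2 regions that did not pass at 8 and 11 weeks. Smad4, the partner of all activated Smads, had 1 region, lost after TNF treatment, at 13.9 and 17.4 in treated against 43.7, 50.3 and 28.3 in WT libraries (log2 fold -1.29 ± 0.32 SE, limma adjusted p = 0.0109). That loss did not pass with median-ratio scaling (log2 fold -0.44, limma adjusted p = 0.225).

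Among extracellular inhibitors, Chrd was gained at 3 weeks 3.7 kb from its start (chromosome 16, 20736501 to 20737300), with 28.1, 36.8 and 39.6 normalized reads in Tg197 and 7.51, 13.6 and 14.8 in WT libraries (log2 fold 1.50 ± 0.30 SE, limma adjusted p = 0.0017). Bmper was lost at 3 weeks, with 69.1, 74.5 and 73.2 in Tg197 and 112, 110.4 and 136 in WT libraries (log2 fold -0.71), and gained elsewhere in the gene at 11 weeks, with 14.4, 17.2 and 39.7 in Tg197 and 8.16, 5.58 and 7.8 in WT libraries (log2 fold 1.47). Within the cell, Smurf1, whose product marks Smads and receptors for degradation, was lost at 3 weeks, with 49.7, 63.2 and 53.4 in Tg197 and 103, 99.5 and 85.2 in WT libraries (log2 fold -0.78 ± 0.14 SE, limma adjusted p = 0.0016). At 11 weeks 2 of its regions were gained (log2 fold 1.30 and 1.02), and after TNF treatment 1 was lost (log2 fold -1.50), a call that did not hold without treated library 1 or WT library 1 or 2. Ski and Skil encode repressors that bind Smads. Skil was lost at 8 weeks, with 14.6, 15.9 and 10.3 in Tg197 and 36.4, 39 and 25.4 in WT libraries (log2 fold -1.24), and gained at another place after TNF treatment (log2 fold 0.80), where Ski was lost (log2 fold -1.52). The TNF losses at Smurf1 and Ski did not pass with median-ratio scaling (limma, adjusted p = 0.243 and 0.142).

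Outside these roles, Bmp2k was gained at 3 weeks, with 24.8, 35.8 and 32.6 normalized reads in Tg197 and 8.45, 21.7 and 6.82 in WT libraries (log2 fold 1.42), and at other places at 11 weeks (log2 fold 0.73, but 0.42 with median ratios, limma adjusted p = 0.132) and after TNF treatment (log2 fold 0.42). The TNF call did not pass without treated library 3 (limma, adjusted p = 0.0902) or WT library 2 (limma, adjusted p = 0.0604). Bmp1, whose product matures collagens, was gained at 11 weeks (log2 fold 1.07) and lost after TNF treatment (log2 fold -0.95; limma adjusted p = 0.058 without treated library 1 and 0.0527 without WT library 2). The TNF loss at Bmp1 did not pass with median-ratio scaling (limma, adjusted p = 0.796). In all, 22 of the 130 members did not pass with the authors' size factors. Those not yet named had log2 fold changes of -0.12 at Tgfb1i1, -0.07 at Acvr1, -0.11 at Acvr2b, -0.14 at Bmper and -0.01 at Smurf1 at 3 weeks. At 8 weeks they were 0.53 at Smad3, 0.40 at Smad5, -1.21 at Smurf2, a ligase related to Smurf1, and -1.27 at Tgfbrap1, which encodes a receptor-associated protein. At 11 weeks they were 0.92 at Acvr1, -0.68 at Bmp1, -0.63 at Bmp6, 1.12 at Ski and -0.37 at Smad5.

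Between tables with separate WT libraries, 8 pairs of member regions shared at least 1 bp, and in all 8 pairs the fold changes had opposite signs. Over all such overlaps 1333 of 2246, or 59.3%, had opposite signs, and the share was 65.0% between 3 and 8 weeks, 69.4% between 3 weeks and TNF treatment, and 71.6% between 11 weeks and TNF treatment, the combinations the members came from. The pairs lay at Bmp6, Smad5, Acvr1, Bmp7, Smad1 and Smad3, and at Eng for 2 of them, which share their 3-week region. Both regions passed in 4 of the 8 pairs: Bmp6, Smad3 and both of Eng. With median-ratio scaling the TNF losses of these pairs did not pass at Bmp6, Smad3 and Eng (limma, adjusted p = 0.114, 0.544 and 0.52). Neither did the 8-week loss at Eng (0.0561) nor the 11-week gain at Smad3 (0.0502). The differences between tables were not tested, because the tables were normalized separately.

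**Figure D5:**
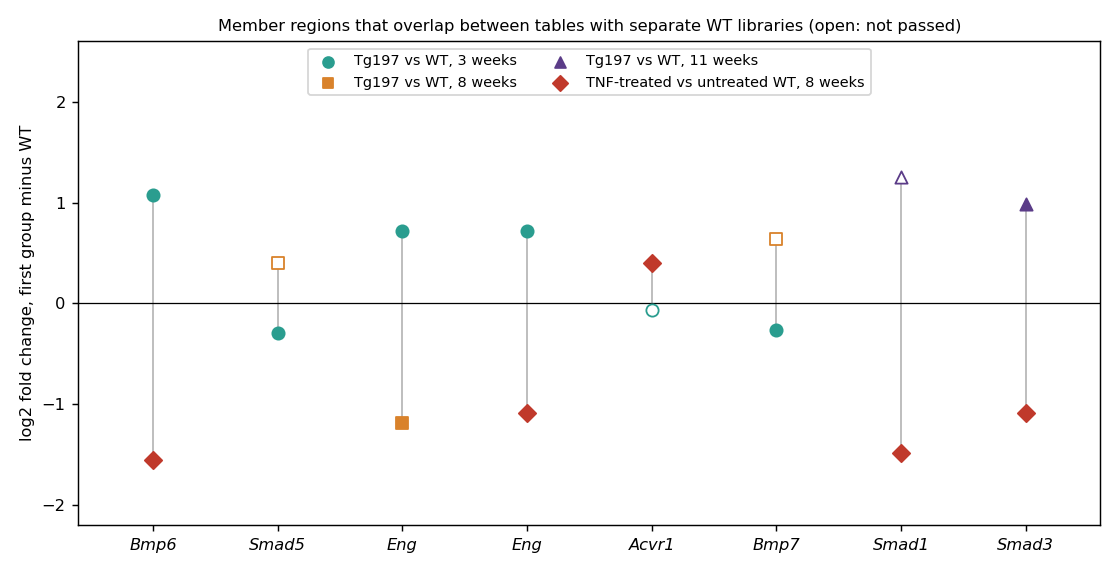
Log2 fold changes (y axis) of the 8 pairs of overlapping member regions (x axis, by gene) from tables with separate WT libraries; filled symbols passed and open ones did not. Each pair lies on both sides of 0, from 1.08 and -1.56 at Bmp6 to -0.07 and 0.40 at Acvr1.

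Several genes moved in both directions within 1 comparison. At 3 weeks 7 of the 11 member genes with several regions had both a gained and a lost one (Acvr1b, Bmp6, Bmp7, Ltbp1, Smad3, Smad9 and Tgfbr3), as did 44.9% of all 1313 named genes with several regions. Leaving out 1 library gave 5 or 6 of the 11 (38.4% to 43.1% of all such genes), since 1 of the calls at Acvr1b, Bmp7 and Smad3 then failed. With median ratios it was 6 of the 11 (37.2%). At 8 weeks this held for Smad1, 1 of 3 member genes with several regions (14.7% of all such genes). It held for 0 of 3 with log2(value + 0.1) (0.0%) and for 0 of 2 among regions with a mean of at least 10 (10.8%). The 8-week fits above in which 0 members passed also gave 0 of 3 (0.0%). At 11 weeks the same held for Ltbp1, 1 of 6 (32.1%). With median ratios the count was 4 of 6 (32.9%; Bmp1, Bmp6, Ltbp1 and Tgfbr3), and without WT library 3 it was 3 of 6 (32.5%). In the 11-week fits above in which no member passed, the count was 0 of 6 (0.0%). After TNF treatment 7 of 10 such genes had both a gained and a lost region (Acvr1, Acvr1c, Bmp6, Bmp7, Eng, Smad1 and Smad3; 32.3% of all). Of these, only Acvr1 and Smad3 were both gained and lost with median ratios (10.1% of all), only Eng, Smad1 and Smad3 without treated library 1 (15.3%), and only Acvr1, Bmp6, Bmp7 and Smad3 without treated library 3 (18.5%). Listed in every table were 5 genes (Smad3, Smad1, Acvr1, Tgfbr3 and Smad9), and 9 genes were in 3 of the tables, 10 in 2 and 21 in 1. Member regions were centred at a median of 30.4 kb from the start, against 28.3 kb for all gene-assigned regions, in genes of a median length of 45.7 kb against 32.0 kb. Near a start lay 8.46% of them, against 12.1% of gene-assigned regions.

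Other genes of these pathways, from a list of 75 that the symbol rule does not take, were listed at 41. At 3 weeks 15 of their 37 regions were gained and 20 lost (42.9% and 41.8% of gene-assigned regions), at 8 weeks 3 of 40 were gained and 28 lost (12.1% and 45.0%), at 11 weeks 14 of 22 were gained and 4 lost (52.7% and 25.6%), and after TNF treatment 13 of 54 were gained and 40 lost (20.8% and 73.0%). The genes named next held the regions with the smallest limma p-values of the list in a table, before adjustment where adjusted values tied. Other regions of the same genes stand beside them and were not chosen by p-value. At 8 weeks Mstn, which encodes the muscle growth inhibitor myostatin, had 0, 4.15 and 0 normalized reads in Tg197 against 24.5, 22.5 and 9.95 in WT libraries (log2 fold -3.44), and Itgb6, part of an integrin that activates TGF-beta, was lost (log2 fold -2.16). Other regions of Itgb6 were gained at 3 weeks (log2 fold 1.25) and 11 weeks (log2 fold 1.64) and lost after TNF treatment (log2 fold -1.69). Runx1, a transcription factor gene that works with Smads, was gained at 11 weeks (log2 fold 1.81), where another of its regions was gained (log2 fold 1.57) and yet another lost (log2 fold -0.99). After TNF treatment it was lost at 3 regions, the deepest at a log2 fold change of -3.28, and gained at 1 (log2 fold 0.91). Emilin1, whose product restrains TGF-beta processing, was lost in the same table (log2 fold -1.19). At 3 weeks the matrix gene Fbn2 was lost at 2 regions (log2 fold -0.61 and -0.34) and gained at 1 (log2 fold 0.96). The ubiquitin ligase gene Nedd4l was lost at 5 regions then (log2 fold -0.36 to -0.17) and gained at 3 (log2 fold 0.75 to 1.53).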

How the data were processed

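MethylCap-seq of 21 samples was analysed from 4 tables of regions in mm9. Per the labels' protocols, DNA was sonicated to about 250 bp, methylated fragments were enriched with a methyl-CpG-binding kit and sequenced as paired reads of 100 bp. BWA, TopHat, TopHat2, Cufflinks and Cuffdiff are named in the submitters' processing notes, with no role given, and the program that compared the groups is not given in the sources used here. Each deposited signal value is the authors' mean of normalized reads of a group, per the file headers, and the values of single libraries stand together in 1 cell, as whole reads times 1 factor per library (100% whole within 0.1 read). The deposited log2 fold changes and p-values are the authors' own. Listed regions are at least 500 bp long (median 550 bp). Exon and intron are not given in the tables, only gene body and promoter classes with the nearest gene, and no genome of this build was used, so no sequence of a listed region is shown.

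For each table limma 3.58.1 (R 4.3.3) was fitted to log2(value + 1) of every listed region with a mean trend, without covariates or a filter, and fold changes are on that scale, Tg197 or TNF-treated minus WT. The procedure was run on simulated data. Few regions changed there and the size factors were known, so that run does not vouch for the calls made here. TNF-treated libraries 1 and 2, identical in all values, entered once. Tests stayed within a table, since tables were normalized separately; 0 columns were left out. Reads are not independent molecules, so the binomial bound covers counting error only. Regions named with values were those with the 6 smallest adjusted p-values per table (ties, of which the 8-week table has many, ordered by the unadjusted p), those near a start, those overlapping between tables or at genes in 3 or more tables, and the largest gain and loss of a table; further regions are named to account for the members, and were chosen after their values were seen. The members and gene lists were chosen with earlier results of these data known.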

Additional observations from a re-analysis of the deposited data

Results flagged for a closer look

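Places at 2 genes were higher in every Tg197 library at one age and lower in every Tg197 library at another. The region upstream of Eng had a log2 fold change of 0.72 at 3 weeks and -1.19 at 8 weeks (both passed in limma), and the groups did not overlap at either age. With median-ratio scaling its 8-week loss did not pass (limma, adjusted p = 0.0561). The region within Bmp7, 61 kb from its start, had -0.27 at 3 weeks, which passed, and 0.64 at 8 weeks, which did not (limma, adjusted p = 0.0739), again without overlap. Over all regions that overlapped between the 3-week and 8-week tables, 65.0% had opposite signs. The groups did not overlap at 86.1% of all listed regions at 3 weeks and at 69.6% at 8 weeks. The difference between ages was not tested, because the tables were normalized separately and list regions that the authors had selected. At 8 weeks Tg197 library 2 lay nearest to WT at Eng (40.8 normalized reads against 46.4 to 55.8 in WT), but not at Bmp7, where Tg197 library 3 did (67.7 against 47.4 to 57.7).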

How the results depend on the processing

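The value kept its sign in every alternative at all but 4 of the 130 member regions: Smurf1 at 3 weeks (-0.01, not passed) became 0.05 with median-ratio scaling and lay between -0.05 and 0.03 with 1 library left out (0.00 without Tg197 library 3, 0.03 without WT library 1), and after TNF treatment Bmp6 and Bmp7 regions became 0.02 and 0.07 with median-ratio scaling and Tgfbr1 (0.50, not passed) lay between -0.00 (without treated library 1) and 1.01 with 1 library left out. At 3 weeks 16 of 17 members (TGF-beta arm 5) passed among regions whose deposited p-value was not below the counting bound, as did 91.8% of all such regions. At an absolute log2 fold change of at least 1, 6 members passed (2 in the TGF-beta and 3 in the BMP arm). Leaving out 1 library gave 24 to 27 members at 3 weeks, 9 to 11 in the TGF-beta and 11 to 12 in the BMP arm, and 77.2% to 82.7% of all regions. At 8 weeks log2(value + 0.1) left 0 members, 0 in each arm and 0.0% of all regions in limma. At unadjusted p under 0.05 the members and arms then had 15, 5 and 6. Leaving out 1 library gave 0 to 17 members there (0.0% to 73.9% of all regions), 0 to 6 and 0 to 8 in the TGF-beta and BMP arms. With an absolute fold of at least 1 the BMP arm had 3. At 11 weeks leaving out 1 library gave 0 to 24 members (0.0% to 75.4% of all regions), 0 to 12 and 0 to 8 by arm. The TGF-beta arm had 5 at an absolute fold of at least 1. After TNF treatment median-ratio scaling left 15 members, 7 in the TGF-beta and 6 in the BMP arm, leaving out 1 library gave 32 to 46, 15 to 20 and 11 to 18 (11 without TNF-treated library 1), and 11 BMP arm regions had an absolute fold of at least 1. The causes were not tested. Log2(value + 5), the filter at a mean of 10, autosomes alone and limma voom (27, 10, 20 and 45 members at 3, 8 and 11 weeks and after TNF) kept every count within 1.5 times. In limma voom 85.7%, 49.0%, 70.3% and 93.2% of all regions passed in the same order. Counting promoter and gene-body classes alone changed nothing, since all members are in them. No paired analysis was possible because the deposited cells carry no replicate numbers.

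All regions had been selected by the authors, and depth outside them is unknown, so an unlisted gene cannot be called unchanged. With 3 libraries per group, and 2 after TNF treatment, and fewest reads at 11 weeks, a region that did not pass may still differ. Where a fit left out a TNF-treated library, the remaining one was assumed to vary like the WT libraries.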
